A study of Mus musculus with 4 samples.

Results

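The nuclear-encoded genes of the mitochondrial respiratory chain were compared between mouse epiblast stem cells with and without knockdown of Tox4, which encodes a chromatin-associated HMG-box protein. They were chosen by name. Members were the genes whose symbol begins with Nduf, Uqcr, Cox4 to Cox8 or Atp5, with Sdha, Sdhb, Sdhc, Sdhd, Cyc1 and Cycs added, and genes with the mt- prefix were left out. The rule took 89 of the 15429 genes listed, and used no measured value. By function they fell into 36 subunits of complex I, 8 assembly factors of complex I, 4 subunits of complex II, 9 of complex III, cytochrome c, 16 genes of complex IV and 15 of complex V. The label held apart from those 8 assembly factors and Atp5s, an accessory factor of ATP synthase, none of which is a subunit. Atp5sl encodes an assembly factor of complex I despite its symbol, and Ndufa4 and Ndufa4l2 are placed in complex IV, where the Ndufa4 protein is now known to sit.

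Polyadenylated RNA was sequenced from 4 libraries of OE7, a line taken from the mouse embryo after implantation. All 4 libraries shared an Oct4-GFP reporter (the Oct4-Gip transgene), growth on fibronectin in N2B27 with Activin A at 20 ng/ml and Fgf2 at 12 ng/ml, and passages 21 to 25. They also shared transfection with 1000 ng of esiRNA, a pool of short interfering RNAs digested from long double-stranded RNA. The control group received Luc esiRNA (n = 2), and the other group Tox4 esiRNA (n = 2). OE7 is a single line. The labels do not say whether replicates were separate cultures, so the p-values given reflect differences among the libraries at hand, and those may be purely technical.

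The respiratory chain passes electrons from NADH (complex I) and succinate (complex II) through ubiquinone, complex III and the small carrier cytochrome c to oxygen at complex IV. Complexes I, III and IV pump protons, and complex V, the ATP synthase, makes ATP as the protons flow back. Most subunits are encoded in the nucleus, made in the cytosol and imported, while a few hydrophobic core subunits are encoded by mitochondrial DNA. Cells of the epiblast after implantation, and the stem cell lines derived from them, are known for leaning on glycolysis. Complex IV is unusual in that several of its small subunits exist in alternative forms. One copy is made in most tissues, and others are tied to heart and skeletal muscle, testis or low oxygen.

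Values are FPKM, fragments scaled by the authors to gene length and library depth. Tox4 itself checked the labels: it stood at 16.7 and 17.5 FPKM in the Luc libraries and at 8.65 and 8.89 FPKM in the Tox4 libraries, a log2 fold change of -0.89 (limma adjusted p = 0.00228). Whole reads worked back from the FPKM steps totalled 12778073 to 19008855 per library. Tested members had a median of 1238 reads in a library, from 2 for Cox6a2 to 35582 for Atp5b. All 10 epiblast stem cell markers looked for were at a mean of 1 FPKM or more, led by Pou5f1, Tdgf1 and Nanog; 1 was called higher and 1 lower. Their summed level was 1870.1 and 1843 FPKM in the Luc libraries and 1746 and 1789 FPKM in the Tox4 libraries, lower in both of the latter. The 3 naive pluripotency and 2 extraembryonic endoderm markers listed were all below 1 FPKM. Of 6 fibroblast markers, 3 were at 1 FPKM or more and none passed the test, and their summed level was 11.4 and 11.7 FPKM in the Luc and 10.8 and 12.7 FPKM in the Tox4 libraries. Of 4 neural progenitor markers, 3 were at 1 FPKM or more and 2 were called higher. Their summed level was 63.5 and 62.5 FPKM in the Luc libraries and 72.3 and 73.7 FPKM in the Tox4 libraries, Pax6 being below 1 FPKM. The part of these marker lists in the results on the respiratory chain was not tested. In bulk RNA, fewer cells of a type and less RNA per cell cannot be told apart.

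Promoters of 4 members, some called and some not, show what the sequence at these genes looks like. They were chosen with the calls known, and allow no comparison of called with uncalled members. They run from 250 bases before to 50 after the annotated start, 5′ to 3′ on the gene's strand, from RefSeq on GRCm38.p6. Capitals mark the NRF1 word (GCGC, any base, TGCGC) and the hypoxia response core ACGTG on either strand. NRF1 is a transcription factor known for binding promoters of respiratory genes, and ACGTG is the core that hypoxia-inducible factors read. Sdha (chr13:74350191-74350490, minus strand), the flavoprotein of complex II, and Cox6a1 (chr5:115348909-115349208, minus strand), the common form of a complex IV subunit, did not pass the test. Cox7a1 (chr7:30183921-30184220, plus strand), the heart and muscle form of a complex IV subunit, was called lower. Cox6b2 (chr7:4753045-4753344, minus strand), known as a testis form, was called higher.
Sdha: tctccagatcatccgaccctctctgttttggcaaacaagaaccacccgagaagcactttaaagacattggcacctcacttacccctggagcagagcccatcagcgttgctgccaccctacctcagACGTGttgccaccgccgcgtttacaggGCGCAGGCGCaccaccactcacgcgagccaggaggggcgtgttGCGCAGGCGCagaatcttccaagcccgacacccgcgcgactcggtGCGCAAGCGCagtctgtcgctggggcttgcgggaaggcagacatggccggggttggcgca
Cox6a1: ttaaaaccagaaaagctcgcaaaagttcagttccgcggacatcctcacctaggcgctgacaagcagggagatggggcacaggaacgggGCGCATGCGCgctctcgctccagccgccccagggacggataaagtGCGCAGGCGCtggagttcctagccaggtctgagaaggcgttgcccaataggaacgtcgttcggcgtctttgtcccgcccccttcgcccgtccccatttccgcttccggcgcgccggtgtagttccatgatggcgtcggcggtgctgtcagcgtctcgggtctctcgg
Cox7a1: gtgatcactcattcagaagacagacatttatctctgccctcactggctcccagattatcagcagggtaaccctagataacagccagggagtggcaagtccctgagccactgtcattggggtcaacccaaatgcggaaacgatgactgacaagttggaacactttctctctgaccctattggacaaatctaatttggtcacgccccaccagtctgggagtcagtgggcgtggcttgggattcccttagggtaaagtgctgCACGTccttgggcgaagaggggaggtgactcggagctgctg
Cox6b2: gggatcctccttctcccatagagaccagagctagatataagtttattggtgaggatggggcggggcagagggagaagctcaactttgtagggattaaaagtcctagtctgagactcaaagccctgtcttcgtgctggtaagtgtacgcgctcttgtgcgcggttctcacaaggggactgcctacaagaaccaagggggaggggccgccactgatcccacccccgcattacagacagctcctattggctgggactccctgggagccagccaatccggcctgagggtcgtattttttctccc
The Sdha promoter held the NRF1 word 3 times, beginning 98, 55 and 10 bases before the start, and ACGTG once, 125 bases before it. The Cox6a1 promoter held the NRF1 word at 162 and 117 bases before the start. Cox7a1 and Cox6b2 held no NRF1 word in this window, and Cox7a1 held 1 hypoxia core, on the opposite strand, beginning at base 10 when the start is base 1. Among uncalled members not printed, Cox6b1, Cox7a2 and Ndufa4 also held no NRF1 word, while Ndufa5 and Ndufs6 held it.

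RefSeq promoters were matched for 70 of the 89 members, with 75 promoters in all. Ndufa4l2 was among the members without an entry. The NRF1 word was in 20 of the 75 (26.7%), against 10.05% of the 11487 promoters of tested genes and 4.60% of all 32851 promoters of the same length. By gene it was in 6 of 12 complex V members with an entry (Atp5c1, Atp5g2, Atp5g3, Atp5h, Atp5k and Atp5o), in 2 of 3 of complex II (Sdha and Sdhd), in 7 of 32 of complex I, in 2 of 6 assembly factors, in 1 of 5 of complex III (Uqcrc1) and in 1 of 11 of complex IV (Cox6a1). The Cycs window held none. CCGGAAGT, a word bound by the ETS factor GABPA, was in 5.33% of member promoters and 8.04% of those of tested genes, and ACGTG in 22.7% and 25.8%. No match overlaps another in the 4 printed promoters. These are matches of letters and say nothing of binding.

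The respiratory chain genes were highly expressed in these cells. The median of their mean levels over the 4 libraries was 87.4 FPKM, against 11.8 FPKM for all tested genes, and 51 members were among the 1000 highest genes by mean FPKM. On this per-length scale the median member level was 73.9 FPKM for complex I, 14.8 FPKM for its assembly factors, 82.1 FPKM for complex II, 124 FPKM for complex III, 63.5 FPKM for cytochrome c, 191 FPKM for complex IV and 137 FPKM for complex V. Core subunits of complex I, which carry the flavin and iron-sulphur clusters, had a median of 56.1 FPKM and its accessory subunits 84.4 FPKM. The highest members were Atp5g2, a c subunit of the proton-driven ring of ATP synthase, at a mean of 628 FPKM, and Uqcr10, a small subunit of complex III, at 486 FPKM.

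These levels depend on the gene length the authors divided by. The lengths that their values imply ran from 69 bases for Cox7a2l to 5506 bases for Ndufab1, and the median was 72.8% of the annotated exon bases. For 7 members (Atp5g2, Atp5k, Cox5b, Cox6a2, Cox7a2l, Ndufa11 and Ndufs5) the length was under 250 bases, so that their rank among genes is uncertain, that of Atp5g2 included. Also, 12 members share over 10% of their 50-base words with other genes, Cycs and Uqcrb among them, and how such reads were assigned is not given. The ratio of FPKM between libraries is not touched by the length for a given gene. The test is, through its 1 FPKM limit and its log2(FPKM + 1) scale, most so for genes at low FPKM.

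**Figure D1:**
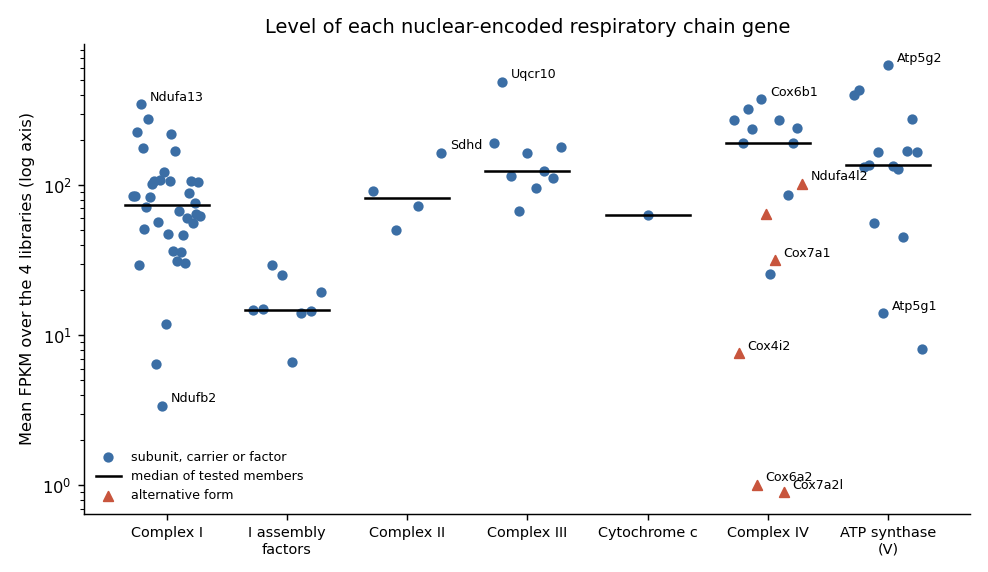
Mean FPKM over the 4 libraries (log axis) of each of the 89 members, by complex. The median of the assembly factors of complex I, 14.8 FPKM, is below the median of every complex, although single subunits such as Ndufb2 and Atp5g1 lie lower still. The alternative forms of complex IV spread down to 0.898 FPKM (Cox7a2l, on at most 2 reads in a library over 69 bases, so its level is uncertain).

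The effect of Tox4 knockdown was tested in all genes whose mean reached 1 FPKM, on log2(FPKM + 1) with limma, two-sided, Benjamini-Hochberg adjusted over 12403 genes at 0.05. Of the members, 88 were tested. Cox7a2l was not, since its mean was 0.898 FPKM, on 1 and 2 reads in the Luc and 1 and 0 reads in the Tox4 libraries. Of all tested genes, 4.51% were called, 1.89% higher and 2.62% lower. Among the 88 members, 1 was called higher (Cox6b2) and 2 lower (Ndufa4l2 and Cox7a1), which is a share close to that of all genes. All 3 are alternative forms of complex IV subunits, of which 5 were tested. Of the other 83 members limma called none. Of these, 13 had an unadjusted p under 0.05, a share of 15.7% against 21.6% of all tested genes, and limma-voom on the recovered reads called 3 (Ndufa5 higher, Ndufs6 and Ndufv3 lower), where it called 11.8% of all tested genes.

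The differences were small. Mean FPKM moved by at most 10% in 77 of the 88 members. The median log2 fold change was -0.039 in the members and -0.0034 in all tested genes, and the middle 50% of values spanned 0.0935 and 0.157 respectively. Among genes whose mean reached 20 FPKM these spans were 0.0997 for 75 members and 0.116 for all 4185 genes. Log2 differences beyond 0.2 in size were found for 5 members (5.68%) and 17.4% of all tested genes. At a mean of 20 FPKM or more these shares were closer, 5.33% of members and 8.39% of genes. Of the 83 members outside the alternative forms, 71 had a 95% confidence interval inside a 1.2-fold change in both directions. The 12 exceptions were Atp5s, Cycs, Ndufa1, Ndufa12, Ndufa5, Ndufaf2, Ndufaf3, Ndufb2, Ndufb4, Ndufs3, Ndufs5 and Ndufs6.

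More members lay below than above the control. The log2 fold change was below 0 in 57 of 88 members (64.8%), against 51.2% of all tested genes. The 2 groups did not overlap in 31 members (35.2%), against 52.0% of all tested genes. In 24 of the 31 the Tox4 libraries were the lower, and in 7 the higher. Among the 7 is Cox6a2, on 2 reads in each library, so that its FPKM differ only through library depth. Of all tested genes, 26.7% did not overlap with the Tox4 libraries lower, and 25.3% with them higher. As shares of the 88, the 24 are close to that of all genes and the 7 are below it. The summed level of all members was 11069 and 10665 FPKM in the Luc libraries and 10425 and 10929 FPKM in the Tox4 libraries. The groups overlapped, and the ratio of means was 0.983.

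**Figure D2:**
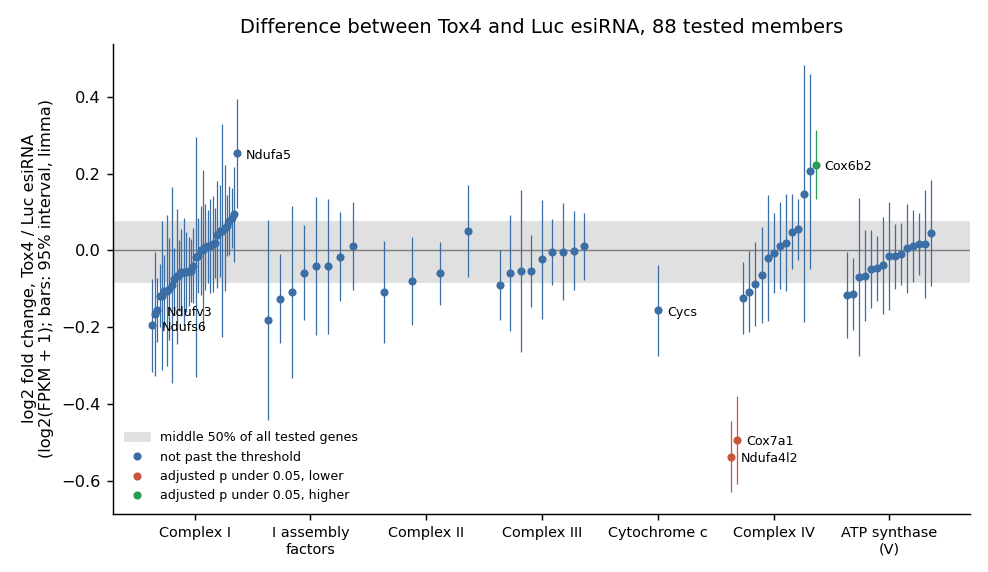
Log2 fold change (Tox4 over Luc esiRNA, on log2(FPKM + 1)) of each of the 88 tested members by complex, with 95% limma confidence intervals and a grey band for the middle 50% of all tested genes. Ndufa4l2 at -0.54, Cox7a1 at -0.49 and Cox6b2 at 0.22 are the members called; the rest lie between -0.19 (Ndufs6) and 0.25 (Ndufa5).

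Ndufa4l2 had the largest difference among the members. It encodes a paralog of the complex IV subunit Ndufa4, is known as a target of hypoxia-inducible factor, and has been tied to lower respiration. It stood at 119 and 123 FPKM in the Luc libraries (mean 121 ± 2.74, SD, n = 2) and at 81.6 and 84.8 FPKM in the Tox4 libraries (83.2 ± 2.31, SD, n = 2). Both Tox4 libraries were below both Luc libraries, and the gap was many times the spread within a group. The ratio of means was 0.687, which is -0.54 on the log2 scale (limma adjusted p = 0.00327, SE 0.04, 95% interval -0.63 to -0.44), on 1992, 1623, 1057 and 953 reads. The gene lies at chr10:127514967-127517154 on the plus strand of GRCm38. There, 32 of its exon bases overlap Shmt2 on the opposite strand, and whether strand was used in counting is not given. Its call held in 12 of 12 alternatives, with log2 fold changes from -0.56 to -0.51 and adjusted p up to 0.0464.

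Ndufa4, the common form, was at 255 and 239 FPKM in the Luc libraries and at 227 and 237 FPKM in the Tox4 libraries. Its log2 fold change was -0.09 (limma adjusted p = 0.331). Taken as a share of the FPKM of the pair, Ndufa4l2 made up 31.9% and 34.0% in the Luc and 26.4% and 26.4% in the Tox4 libraries, a difference of -6.57 percentage points. The share of Ndufa4l2 was thus lower in each Tox4 library than in each Luc library. With 2 against 2 libraries an exact permutation test cannot go below p = 0.33, so no test of a share is given.

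Cox7a1 encodes the heart and skeletal muscle form of a subunit at the dimer interface of complex IV. It was at 37.4 and 36.5 FPKM in the Luc libraries (mean 37.0 ± 0.648, SD, n = 2) and at 25.1 and 26.9 FPKM in the Tox4 libraries (26.0 ± 1.24, SD, n = 2). The groups stood well apart, with a ratio of 0.704. On the log2 scale this was -0.49 (limma adjusted p = 0.00863, SE 0.05, 95% interval -0.61 to -0.38), on 265, 204, 138 and 128 reads. The gene lies at chr7:30184144-30186078 on the plus strand, and neither it nor Ndufa4l2 nor Cox6b2 shares a 50-base word with another gene. The call was lost without Luc replicate 1 (log2 fold change -0.47, adjusted p = 0.0598) and without Luc replicate 2 (-0.51, adjusted p = 0.0582). It was also lost without the intensity trend (adjusted p = 0.0537), so that it held in 9 of 12 alternatives, with the same direction in all 12.

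Its common counterpart Cox7a2 was at 289 and 266 FPKM in the Luc libraries and at 259 and 272 FPKM in the Tox4 libraries, and the groups overlapped (log2 fold change -0.06, limma adjusted p = 0.535). The share of Cox7a1 in the pair was 11.5% and 12.1% in the Luc and 8.85% and 9.0% in the Tox4 libraries, a difference of -2.84 points. Of 6 muscle markers, Ckm, Myh6, Myh7 and Tnnt2 had a mean below 1 FPKM. The other 2, Tnni3 and Acta1, were at a mean of 1 FPKM or more. The 6 muscle markers summed to 8.09 and 8.0 FPKM in the Luc and 8.41 and 8.62 FPKM in the Tox4 libraries, and none was called.

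Cox6b2 encodes the testis form of a subunit that faces the intermembrane space, where cytochrome c docks. It was at 60.3 and 58.5 FPKM in the Luc libraries (mean 59.4 ± 1.31, SD, n = 2) and at 68.5 and 70.5 FPKM in the Tox4 libraries (69.5 ± 1.4, SD, n = 2). Here both Tox4 libraries were the higher, by a ratio of 1.17. On the log2 scale this was 0.22 (limma adjusted p = 0.0338, SE 0.04, 95% interval 0.13 to 0.31), on 1208, 924, 1064 and 949 reads. The gene lies at chr7:4751792-4753094 on the minus strand. This call was the least stable of the 3, holding in 7 of 12 alternatives with adjusted p up to 0.190. It was lost without Luc replicate 1 (0.25, adjusted p = 0.143), without Luc replicate 2 (0.20, adjusted p = 0.190) and without Tox4 replicate 2 (0.20, adjusted p = 0.0724).

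Cox6b1, the common form, was at 382 and 366 FPKM in the Luc libraries and at 362 and 383 FPKM in the Tox4 libraries, a log2 fold change of -0.0073 (limma adjusted p = 0.948). Cox6b2 made up 13.6% and 13.8% of the pair in the Luc and 15.9% and 15.6% in the Tox4 libraries, a difference of 2.04 points. On this per-length scale a form named for testis made up over 10% of the pair in each library, as did Ndufa4l2 of its own. The size of such shares rests on the implied lengths. These were 1029 bases for Cox6b2 and 404 for Cox6b1, and 859 bases for Ndufa4l2 and 491 for Ndufa4.

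**Figure D3:**
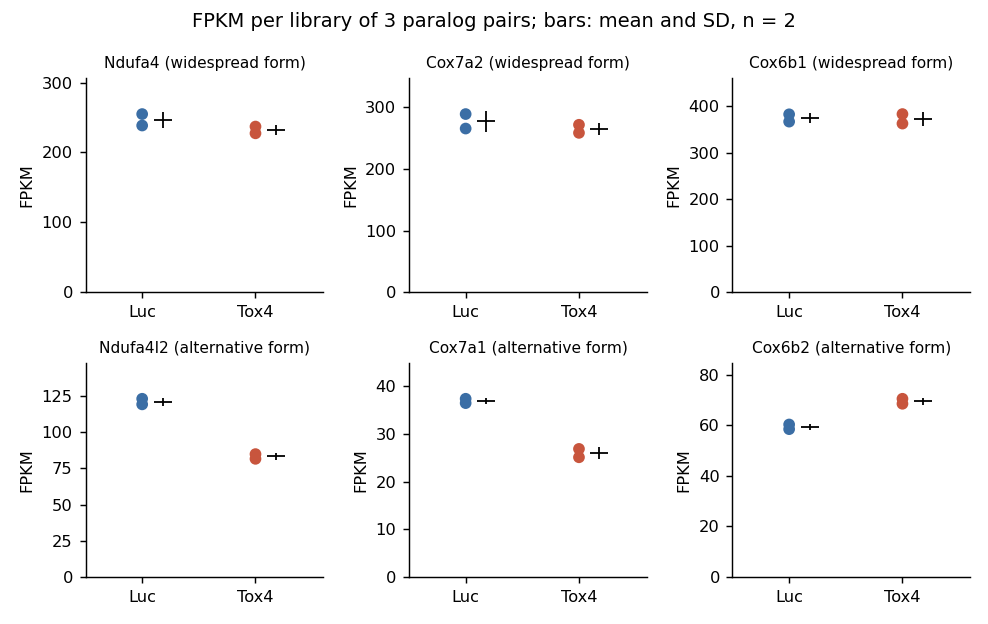
FPKM in each library of Ndufa4 and Ndufa4l2, Cox7a2 and Cox7a1, and Cox6b1 and Cox6b2, with the mean and SD of each group (n = 2). Ndufa4l2 and Cox7a1 are lower and Cox6b2 higher in both Tox4 libraries; Cox7a2 and Cox6b1 overlap between the groups, and Ndufa4 was not called.

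Of the remaining alternative forms, Cox4i2 and Cox6a2 were at low FPKM. Cox7a2l, grouped with these forms by family, rested on at most 2 reads in a library. They were counted over 69 bases, 4.67% of its exon bases, so its level in these cells is uncertain. Cox4i2, a form known from lung and from cells at low oxygen, was at 6.40 and 7.57 FPKM in the Luc libraries and at 7.53 and 8.89 FPKM in the Tox4 libraries, on 83 to 91 reads (log2 fold change 0.21, limma adjusted p = 0.320). The groups overlapped. It made up 2.33% to 3.13% of the sum with Cox4i1, which was at 268 and 263 FPKM in the Luc and at 277 and 275 FPKM in the Tox4 libraries (0.05, limma adjusted p = 0.392). Cox6a2, a heart and muscle form, was at 0.797, 1.01, 1.03 and 1.19 FPKM on 2 reads in each library, too few to read a difference from. Its common form Cox6a1 was at 236 and 226 FPKM in the Luc and at 234 and 244 FPKM in the Tox4 libraries (0.05, limma adjusted p = 0.536). Summed over the 6 alternative forms, the level was 225 and 229 FPKM in the Luc and 185 and 192 FPKM in the Tox4 libraries, a ratio of 0.832. Nearly all of that difference was Ndufa4l2: the other 5 forms summed to 105.7 and 105.5 FPKM in the Luc and 103.2 and 107.5 FPKM in the Tox4 libraries, a ratio of 0.998.

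The 10 common subunits of complex IV summed to 2276 and 2172 FPKM in the Luc libraries and to 2132 and 2249 FPKM in the Tox4 libraries. These overlapped, at a ratio of 0.985. Limma called none of the 10, 2 had an unadjusted p under 0.05, and limma-voom called none. The lowest log2 fold change was that of Cox7b, at 91.7 and 87.2 FPKM in the Luc and 81.5 and 82.6 FPKM in the Tox4 libraries (-0.12, limma adjusted p = 0.136). Cox5b, which binds zinc on the matrix side, was at 326 and 322 FPKM in the Luc and at 298 and 343 FPKM in the Tox4 libraries. Its Tox4 libraries lay on either side of the controls (-0.019, limma adjusted p = 0.908).

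Complex I, the NADH dehydrogenase, had 36 subunits tested, and limma called none. Of these, 7 had an unadjusted p under 0.05. Their summed level was 3420.1 and 3325 FPKM in the Luc libraries and 3264 and 3420.3 FPKM in the Tox4 libraries, a ratio of 0.991 with overlap. The median log2 fold change was -0.028, with 20 of 36 below 0. The groups did not overlap in 14 (38.9%, against 52.0% of all tested genes), of which 10 were lower and 4 higher in the Tox4 libraries. Of all tested genes, 26.7% were lower without overlap and 25.3% higher.

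The core subunits of complex I are the conserved ones that bind the flavin and iron-sulphur clusters. Of the 7, Ndufv1, which holds the flavin and binds NADH, was at 64.9 and 62.4 FPKM in the Luc and 63.9 and 65.3 FPKM in the Tox4 libraries. Ndufs1, the largest core subunit, was at 36.6 and 35.4 FPKM in the Luc and 36.0 and 36.5 FPKM in the Tox4 libraries. Both overlapped between the groups. Ndufs3 had the lowest core log2 fold change, -0.17 (SE 0.07, limma adjusted p = 0.222). Its values were 31.9 and 32.1 FPKM in the Luc and 26.6 and 30.4 FPKM in the Tox4 libraries, so that most of the difference lay in Tox4 replicate 1. These core genes were described after their values were seen.

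Among the 29 accessory subunits, which surround and stabilise the core, the 3 highest were Ndufa13, Ndufa6 and Ndufa11. Ndufa13, also known as Grim19, was at 333 and 341 FPKM in the Luc libraries and at 348 and 363 FPKM in the Tox4 libraries (log2 fold change 0.08, limma adjusted p = 0.295). Ndufa6 was at 285 and 280 FPKM in the Luc and at 276 and 269 FPKM in the Tox4 libraries (-0.05, limma adjusted p = 0.438). Neither overlapped between groups, yet the gaps were too small to pass. Ndufa11 was at 222 and 231 FPKM in the Luc and at 207 and 249 FPKM in the Tox4 libraries (0.0019, limma adjusted p = 0.992). Its Tox4 replicates differed from each other by more than the Luc replicates did.

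The extremes of complex I fell short of the threshold. Ndufa5, an accessory subunit of the peripheral arm, had the highest log2 fold change of all members, 0.25 (SE 0.06, limma adjusted p = 0.0695). It was at 69.2 and 61.6 FPKM in the Luc and at 78.0 and 77.9 FPKM in the Tox4 libraries, with no overlap. Ndufs6, a zinc-binding subunit added late in assembly, had the lowest, -0.19 (SE 0.05, limma adjusted p = 0.0878), at 114 and 115 FPKM in the Luc and 95.4 and 105 FPKM in the Tox4 libraries. Ndufv3, which sits at the NADH-oxidising end and is added here after its values were seen, was at 64.8 and 66.1 FPKM in the Luc and at 58.3 and 59.1 FPKM in the Tox4 libraries (-0.15, SE 0.03, limma adjusted p = 0.0647). With genes under a mean of 5 FPKM left out, 9.28% of 9066 genes were called, and these 3 were called along with the 3 alternative forms, 6 members in all.

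Complex I is built stepwise with dedicated factors, and 8 members are such factors. Limma called none, 1 had an unadjusted p under 0.05, and limma-voom called none. Their mean levels ran from 6.63 to 29.5 FPKM, with a median of 14.8 FPKM against 73.9 FPKM for the subunits of the complex. The ranges overlapped, since Ndufb2, Ndufab1 and Ndufb4 were at 3.39, 6.42 and 12.0 FPKM. Ndufaf2, a chaperone of late assembly, was at 28.5 and 32.8 FPKM in the Luc and at 26.2 and 30.5 FPKM in the Tox4 libraries (log2 fold change -0.11, limma adjusted p = 0.555). Ndufaf3, an early factor, was at 27.4 and 26.4 FPKM in the Luc and at 20.9 and 26.7 FPKM in the Tox4 libraries (-0.18, limma adjusted p = 0.389), the low value being that of Tox4 replicate 1. Ndufaf7, an arginine methyltransferase that modifies a core subunit, was at 19.4 and 19.0 FPKM in the Luc and at 18.9 and 19.9 FPKM in the Tox4 libraries (0.01, limma adjusted p = 0.917). In both, the groups overlapped.

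Complex II, succinate dehydrogenase, links the citrate cycle to the chain and has no subunit encoded in mitochondrial DNA. Limma and limma-voom called none of its 4 genes, and none had an unadjusted p under 0.05. Sdha, the flavoprotein whose promoter is printed above, was at 94.6 and 92.2 FPKM in the Luc and at 89.8 and 89.3 FPKM in the Tox4 libraries (log2 fold change -0.06, limma adjusted p = 0.375). Sdhb, the iron-sulphur subunit, was at 51.1 and 48.4 FPKM in the Luc and at 49.8 and 53.3 FPKM in the Tox4 libraries (0.05, limma adjusted p = 0.613). The first pair of groups stood apart by a small gap, and the second overlapped. Of the membrane anchors, Sdhc was at 74.5 and 74.8 FPKM in the Luc and at 67.8 and 73.5 FPKM in the Tox4 libraries (-0.08, limma adjusted p = 0.385). Sdhd was at 178 and 163 FPKM in the Luc and at 153 and 163 FPKM in the Tox4 libraries (-0.11, limma adjusted p = 0.321).

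Complex III hands electrons from ubiquinol to cytochrome c, and its 9 genes had the smallest median size of log2 fold change of the 5 complexes, 0.023. None had an unadjusted p under 0.05, limma and limma-voom called none, and log2 fold changes ran from -0.09 to 0.01. Uqcr10 was at 490 and 483 FPKM in the Luc and at 478 and 493 FPKM in the Tox4 libraries (-0.0039, limma adjusted p = 0.968). Cyc1, the cytochrome c1 that passes electrons on, was at 195 and 186 FPKM in the Luc and at 192 and 192 FPKM in the Tox4 libraries (0.01, limma adjusted p = 0.902). Both overlapped between groups. Uqcrq was at 190 and 175 FPKM in the Luc and at 161 and 192 FPKM in the Tox4 libraries (-0.05, limma adjusted p = 0.773). Uqcrc2, a core protein on the matrix side, was the lowest, at 100 and 96.6 FPKM in the Luc and 91.0 and 93.9 FPKM in the Tox4 libraries (-0.09, limma adjusted p = 0.242).

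Cycs, the somatic cytochrome c that carries electrons to complex IV, was at 69.7 and 64.4 FPKM in the Luc libraries and at 58.9 and 61.1 FPKM in the Tox4 libraries. Both Tox4 libraries were the lower, and the log2 fold change of -0.16 did not pass (limma adjusted p = 0.137, unadjusted p under 0.05). Of its 50-base words, 26.1% are shared with other genes, and how such reads were counted is not given.

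Complex V, the ATP synthase, had 15 genes tested, and limma and limma-voom called none, with 2 at an unadjusted p under 0.05. Atp5a1 and Atp5b form the catalytic head. Atp5b was at 436 and 424 FPKM in the Luc and at 422 and 429 FPKM in the Tox4 libraries (log2 fold change -0.015, limma adjusted p = 0.854). Atp5a1 was at 398 and 398 FPKM in the Luc and at 392 and 400 FPKM in the Tox4 libraries (-0.0089, limma adjusted p = 0.911). In both, the Tox4 libraries lay within or next to the range of the controls. The lowest log2 fold change was that of Atp5e, the epsilon subunit of the stalk, at 60.2 and 56.2 FPKM in the Luc and 52.7 and 54.6 FPKM in the Tox4 libraries (-0.12, limma adjusted p = 0.220).

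The c subunit of the ATP synthase ring is made from 3 genes whose mature proteins are the same. Atp5g2 was at 651 and 598 FPKM in the Luc and at 609 and 655 FPKM in the Tox4 libraries (log2 fold change 0.02, limma adjusted p = 0.902). Atp5g3 was at 135 and 131 FPKM in the Luc and at 134 and 134 FPKM in the Tox4 libraries (0.02, limma adjusted p = 0.835). Atp5g1 was at 13.8 and 13.7 FPKM in the Luc and at 13.6 and 14.8 FPKM in the Tox4 libraries (0.05, limma adjusted p = 0.702). All 3 overlapped between groups. Their mean shares of the family were 81.0%, 17.2% and 1.78% in the Luc and 81.0%, 17.2% and 1.82% in the Tox4 libraries, and the groups overlapped for each of the 3. The share of Atp5g2 rests on an implied length of 125 bases.

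The members also moved together within the groups. Luc replicate 1 was above Luc replicate 2 in 68 of 88 members (77.3%), against 49.5% of all tested genes, with a median log2 difference of 0.052. Tox4 replicate 2 was above Tox4 replicate 1 in 72 of 88 members (81.8%), against 50.03% of all tested genes, with a median of 0.055. Over all tested genes these medians were -0.0011 and 0.0002. In complex V each held for 14 of 15 genes. The shifts between replicates were thus larger in size than the median of -0.039 between the groups. That median was -0.0014 without Luc replicate 1, -0.0020 without Tox4 replicate 1, -0.069 without Luc replicate 2 and -0.053 without Tox4 replicate 2. What moved with these shifts was not tested.

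**Figure D4:**
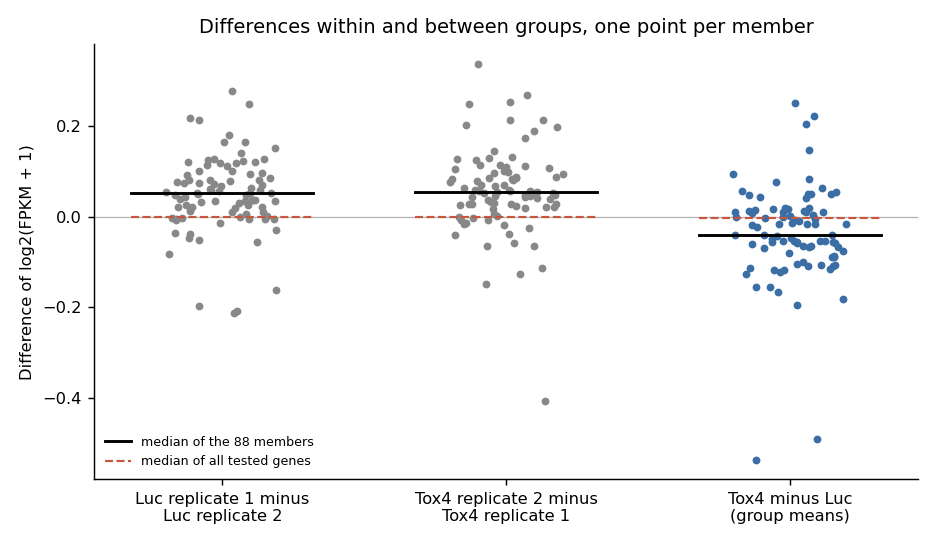
Log2 differences of the 88 tested members between the Luc replicates (1 minus 2), between the Tox4 replicates (2 minus 1) and between the groups (Tox4 minus Luc), with medians drawn. The medians within groups (single libraries), 0.052 and 0.055, are larger in size than that between the groups (means), -0.039. In the comparison of the groups Ndufa4l2 and Cox7a1 lie apart from the rest, while Cox6b2 lies near the uncalled Ndufa5 and Cox4i2.

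Genes that build, regulate or feed the chain were looked at beside it. Of 40 assembly factors and chaperones outside the naming rule, limma called none, 5 had an unadjusted p under 0.05, limma-voom called none, and the median log2 fold change was -0.033. Cox14, which acts early in the making of the complex IV core, was at 74.8 and 73.1 FPKM in the Luc and at 65.8 and 66.8 FPKM in the Tox4 libraries (limma adjusted p = 0.0651). Sdhaf1, which helps insert iron-sulphur clusters into Sdhb, was at 19.3 and 20.8 FPKM in the Luc and at 23.4 and 22.8 FPKM in the Tox4 libraries (limma adjusted p = 0.0965). Both had groups that did not overlap, in opposite directions.

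Of 15 regulators of respiratory genes and of mitochondrial transcription, limma called none, 1 had an unadjusted p under 0.05 (Pprc1), and limma-voom called that 1. Pprc1, a coactivator related to PGC-1, had a log2 fold change of 0.15 (limma adjusted p = 0.1002), and Esrra, a nuclear receptor of respiratory genes, 0.11 (limma adjusted p = 0.294). Of 17 genes of pyruvate dehydrogenase and the citrate cycle, limma and limma-voom called none, and 1 had an unadjusted p under 0.05. Their lowest p values were those of Sucla2 at -0.11 (limma adjusted p = 0.202) and Suclg2 at -0.10 (limma adjusted p = 0.248), both subunits of succinyl-CoA ligase. The median log2 fold change was 0.027 in the regulators and -0.028 in the citrate cycle genes.

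Of 13 genes of ubiquinone synthesis, limma and limma-voom called none, 2 had an unadjusted p under 0.05, and the median was 0.017. Coq3 had a log2 fold change of -0.26 (limma adjusted p = 0.123) and Coq10a 0.22 (limma adjusted p = 0.201). Of 8 carriers, channels and inhibitors that serve ATP synthase, limma and limma-voom called none and none had an unadjusted p under 0.05. Vdac1 and Vdac3, pores of the outer membrane, were each at -0.09 (limma adjusted p = 0.276 and 0.369). Of 8 genes known from the switch from respiration to glycolysis under low oxygen, limma called none, 2 had an unadjusted p under 0.05, limma-voom called 1 (Lonp1), and the median was -0.048. Lonp1, a matrix protease, had a log2 fold change of -0.12 (limma adjusted p = 0.110) and Pdk3, a kinase that inhibits pyruvate dehydrogenase, -0.14 (limma adjusted p = 0.121). Ndufa4l2 itself was not counted in that list.

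Of 9 tested subunits encoded in mitochondrial DNA, limma called 6 higher, where 1.89% of all tested genes were, and none lower, with a median log2 fold change of 0.25. The largest was that of mt-Cytb, the cytochrome b of complex III, at 1199.9 and 1176 FPKM in the Luc and 1719 and 1746 FPKM in the Tox4 libraries (0.54, limma adjusted p = 0.00327). The 9 nuclear genes of the same complex had a median of -0.023. The 3 not called were mt-Nd6, mt-Co3 and mt-Atp6. mt-Nd6 had means of 76.9 FPKM in both groups (-0.00046, limma adjusted p = 0.995). mt-Co3 had means of 1.32 FPKM in the Luc and 1.62 FPKM in the Tox4 libraries (0.18), and mt-Atp6 3.10 and 3.70 FPKM (0.19). By comparison, mt-Co1 had means of 2707 and 3214 FPKM. At their low FPKM, the lack of a call for mt-Co3 and mt-Atp6 does not show that they were unchanged. Of 13 such subunits looked for, only these 9 were listed among the deposited genes.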

How the data were processed

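The authors deposited FPKM values of 15429 genes in 4 libraries; the 4 library files and the series table held identical values. CASAVA 1.8, STAR 2.3.0e and GRCm38.p1 are named in the submitters' processing notes. Not given in the sources used here: the counting program, its annotation and strand setting, and the treatment of multiply mapped reads. The 12403 genes whose mean reached 1 FPKM were fitted on log2(FPKM + 1) in limma 3.58.1 (R 4.3.3), with an intensity trend, 2 residual and 4.01 prior degrees of freedom and no covariate. A fold change on this scale understates that of low genes. Whole reads were recovered for 100% of values at a relative tolerance of 2e-13 (for 4.72% of genes a common factor was chosen), 97.7% of the implied depth in each library. Replicates differed beyond sampling noise: chi-square over degrees of freedom was 1.65 (Luc) and 1.97 (Tox4). On simulated reads for this comparison and 12403 genes, 19.7% of 1.3-fold, 70.4% of 1.5-fold and 97.3% of 2-fold changes were recovered. Of the simulated calls, 10.9% were false. These shares depend on the replicate spread assumed in the simulation, and on how many and which genes were changed. They were not split by read number, so they cannot be applied to genes with few reads. Gene positions are from GENCODE on GRCm38. The members and lists were chosen with earlier results of these data known. Members described were those called, the 3 highest and the extremes of each complex, paralog families, complex II, Cyc1 and Cycs, and up to 4 genes per accompanying list. Alternatives were other pseudocounts and filters, no trend, median centring, a replicate block, limma-voom on recovered reads, and leaving out each library.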

Additional observations from a re-analysis of the deposited data

How the results depend on the processing

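With 2 libraries per group and few degrees of freedom, counts of calls depend on the model more than fold changes do. Over all tested genes, 234 were called higher and 325 lower. Without a filter these were 146 and 202, without the trend 33 and 45, with limma-voom on recovered reads 738 and 722, and with a mean of at least 5 FPKM 365 and 476. Among the members, 1 was higher and 2 lower. No filter gave 0 higher, no trend 0 higher and 1 lower, and limma-voom and the 5 FPKM filter each gave 2 higher and 4 lower. The labels do not say whether replicates of the same number were paired. With 2 pairs the correlation of deviations was -0.036, which cannot settle it. The replicate block gave 2 members higher, Ndufa5 being the addition, and 222 genes higher and 334 lower.

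Leaving out 1 library gave 27 to 176 genes higher and 34 to 296 lower, and 0 to 1 members higher and 1 to 5 lower. A lone library was then assumed to vary like the other group. The 5 came without Tox4 replicate 2 and were Cox7a1, Ndufa4l2, Ndufaf3, Ndufs3 and Ndufs6. Median log2 fold changes then ranged from -0.053 to 0.010 in complex I, -0.085 to -0.022 in its assembly factors, -0.067 to 0.011 in complex III, -0.047 to 0.032 in complex IV and -0.071 to 0.0053 in complex V. Members near 0 turned sign: log2 fold changes ran from -0.13 to 0.14 for Ndufa11 (-0.0023 with limma-voom), -0.023 to 0.047 for Ndufaf7, -0.027 to 0.019 for Uqcr10, -0.020 to 0.042 for Cyc1, -0.18 to 0.072 for Uqcrq, -0.047 to 0.032 for Cox6b1, -0.12 to 0.083 for Cox5b, -0.044 to 0.078 for Atp5g2, -0.033 to 0.0039 for Atp5b, -0.023 to 0.0053 for Atp5a1, -0.0036 to 0.035 for Atp5g3 and -0.012 to 0.10 for Atp5g1. The cause was not tested. Centring and pseudocounts of 0.1 and 0.5 changed no call of a member. Cox6a2 and Cox7a2l rest on at most 2 reads each in a library, counted over 129 and 69 bases, and allow no comparison.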
